A study of Mus musculus with 64 samples.

Results

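Clone H is one of the tumor cell clones that the study grew out of mouse KPC pancreatic cancer, and the expression profile that sets it apart in mono-culture is described here from its 4 mono-culture libraries. They were compared with 24 mono-culture libraries of clones E, K, M, N, T and V, 4 for each clone, with every clone averaged first so that each of the 6 counted equally. These 28 libraries are part of 64 in the series, and the libraries of the parental KPC1 line were left out. All 7 clones carry the KPC alleles, mutant Trp53 among them, switched on by a Cre recombinase under the Pdx1 promoter, in cells of the pancreatic lineage on a C57BL/6 mixed background. Tumor cells were grown alone (mono-culture) or for 48 h with fibroblasts and then sorted by their GFP (coculture), and poly(A) RNA was sequenced. Each clone is a single clonal line. A test over its libraries therefore measured the spread between libraries of that line, and the labels do not say whether these came from separate cultures.

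Pancreatic ductal adenocarcinoma cells range from an epithelial state, held by junction proteins and apical proteases and their inhibitors, to a mesenchymal state in which factors such as Snai1 and Prrx1 are expressed and the cells make their own collagens and matrix enzymes. Subclones of a tumor can hold different positions on this range and can also differ in silenced genes and in chromosome copies. Both kinds of difference are passed on to daughter cells.

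The clone H libraries held between 12994330 and 19055340 counts, and those of the other clones between 11661214 and 21333683. Of the ductal epithelial markers, 7 of 8 reached 1 CPM (counts scaled to library size, with TMM scaling between libraries) in clone H, with Krt8 at 993 ± 84.7 CPM, Krt18 at 1500 ± 75.5 CPM and Sox9 at 227 ± 20.2 CPM (SD, n = 4). Epcam, a defining marker of epithelial cells, was at 0.016 CPM in clone H and at no more than 0.372 CPM in any other clone. Of the 8 acinar markers, Cela1 was at 2.52 ± 0.665 CPM, and the other 7 acinar markers and 7 of 8 endocrine markers were at or under 0.1 CPM. Fibroblast markers summed to between 99.4 and 119 CPM in clone H and to between 29.8 and 261 CPM elsewhere, with 5 of the 10 (Dcn, Lum, Fap, Postn and Thy1) at or under 0.1 CPM and 4 at or over 1 CPM in clone H. These 4 were Col3a1 (54.04 ± 11.1 CPM), Col1a1 (31.5 ± 4.12 CPM), Pdgfra (13.3 ± 1.92 CPM) and Fbln1 (6.68 ± 1.25 CPM). Leukocyte markers summed to 71.6 to 96.8 CPM against 22.3 to 111 CPM, with 7 of the 9 at or under 0.1 CPM, Ptprc at 0, Cd14 at 81.2 ± 10.1 CPM and Cd68 at 4.58 ± 1.28 CPM. Endothelial markers summed to 2.82 to 5.40 CPM against 0.632 to 12.5 CPM. The 4 clone H libraries correlated with each other at r of 0.982 to 0.989 across 13509 genes, and the clone mean was closest to that of clone V (r = 0.949), with r of 0.883 to 0.907 for the other 5 clones.

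Clone H differed from the average clone in many genes, as each of the other clones did. Of 13509 genes tested with the quasi-likelihood test of edgeR, 1043 (7.72%) were higher and 936 (6.93%) lower in clone H than the mean of the 6 other clones, at a Benjamini-Hochberg adjusted p under 0.1 and a log2 fold change of at least 1. In the other 6 clones, each set against the mean of the rest, 783 to 1224 genes were higher and 598 to 1188 lower. A stricter rule asked clone H to lie beyond each of the 6 clones, with a log2 margin of at least 1 to the nearest of them. By this rule 119 genes (0.881%) were highest and 88 genes (0.651%) were lowest in clone H. The same rule gave 25 to 196 highest and 22 to 256 lowest genes in the other 6 clones. For 72 of the 119 genes clone V had the next highest mean, and for 38 of the 88 genes the next lowest. Just inside the margin of 1 lay Spcs3 and Itga10 (both 1.01) for the highest genes, and just outside it Rapgef5 (0.998) and Bace2 (0.996). For the lowest genes Lrrc61 (1.01) and Zcwpw1 (1.02) lay just inside, and Peli2 (0.996) and Ppip5k1 (0.995) just outside. In 118 of the 119 genes every clone H library lay above all 24 others, as in 3.15% of all genes tested, and in 86 of the 88 every one lay below, as in 2.31%. Such separation largely follows from the margin rule on these same libraries and adds no support for the calls. These calls rest on the spread between libraries. When the 4 libraries of each clone were summed and clone H was set against the spread between the 6 other clones, edgeR called 0 of 13509 genes, with 522 at an unadjusted p under 0.05 and a smallest adjusted p of 0.172, whereas DESeq2 called 173 on the same sums.

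Of 39017 genes in the table, 2 (0.00513%) were on in clone H alone, meaning at least 1 CPM in every clone H library and at most 0.1 CPM in each of the 24 others. Cxx1a, a gene of the retrotransposon Gag-like family that the current annotation calls Rtl8a (ENSMUSG00000067925, chrX:53642488-53643682, minus strand, GRCm38), read 2.08, 3.73, 2.43 and 3.96 CPM in the clone H libraries and at most 0.0702 CPM elsewhere. The 188 clone H counts stood against 1 count in clone K, a ratio of 174 (95% exact binomial interval 31.2 to 6994, for counting error only), and 0 counts in the other 5 clones. Cxx1b (Rtl8b), its near copy on the same strand, was also highest in clone H, with 4.21, 3.73, 4.70 and 4.76 CPM against a mean of 1.59 CPM in clone N and at most 0.154 CPM in the other 5 clones. Counts of 2 such similar genes can be split wrongly between them, so their separate values are uncertain. Lhfpl4, which encodes a transmembrane protein of inhibitory synapses (ENSMUSG00000042873, chr6:113168090-113195384), was the other gene, with 2.33, 2.24, 2.43 and 2.62 CPM in clone H and at most 0.0744 CPM in any other library. No gene was off by the reverse rule (0 of 39017).

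The 12 genes highest in clone H with the largest margins were led by Trp53i11, which encodes a p53-inducible protein (ENSMUSG00000068735, chr2:93187548-93201759). It read 17.4, 15.7, 23.4 and 15.1 CPM in clone H and at most 0.130 CPM in any other library. Its 1146 counts in clone H compared with 2 in clone K, a ratio of 552 (interval 148 to 4438), and its log2 margin to the nearest clone was 8.74 (edgeR adjusted p = 5.07e-09). Vipr1, the receptor for vasoactive intestinal peptide, read 7.61, 4.98, 7.34 and 4.21 CPM in clone H, 0.0688 CPM in clone K and 0 in the other 5 clones. Trpv4, a calcium channel opened by osmotic and mechanical stimuli, read 20.6, 18.9, 15.9 and 17.6 CPM against clone means of 0.0889 to 0.385 CPM, a 47.4-fold difference from the nearest clone. None of these 3 genes passed 0.486 CPM in any library of another clone. Their clone H libraries lay above all others, as in 3.15% of all genes tested. That separation largely follows from the margin rule that chose the genes.

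Bcl11b, a zinc finger transcription factor best known for T cell commitment, read 20.4, 16.5, 19.4 and 12.8 CPM in clone H. Clone V had 1.498 CPM, and the other 5 clones at most 0.0344 CPM. Armcx4 and Gimap8 (8.36 ± 1.25 and 1.23 ± 0.272 CPM, SD, n = 4) stood 21.1-fold and 14.3-fold above the nearest clone. Gimap8 belongs to a family of similar GTPases in 1 gene cluster. Pcdhb21, a clustered protocadherin, read 13.2, 15.3, 16.2 and 15.9 CPM against clone means of 0.062 to 1.51 CPM. The remaining 3, Col8a2, Col15a1 and Mmp16, are matrix genes and are described with their lists.

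**Figure D1:**
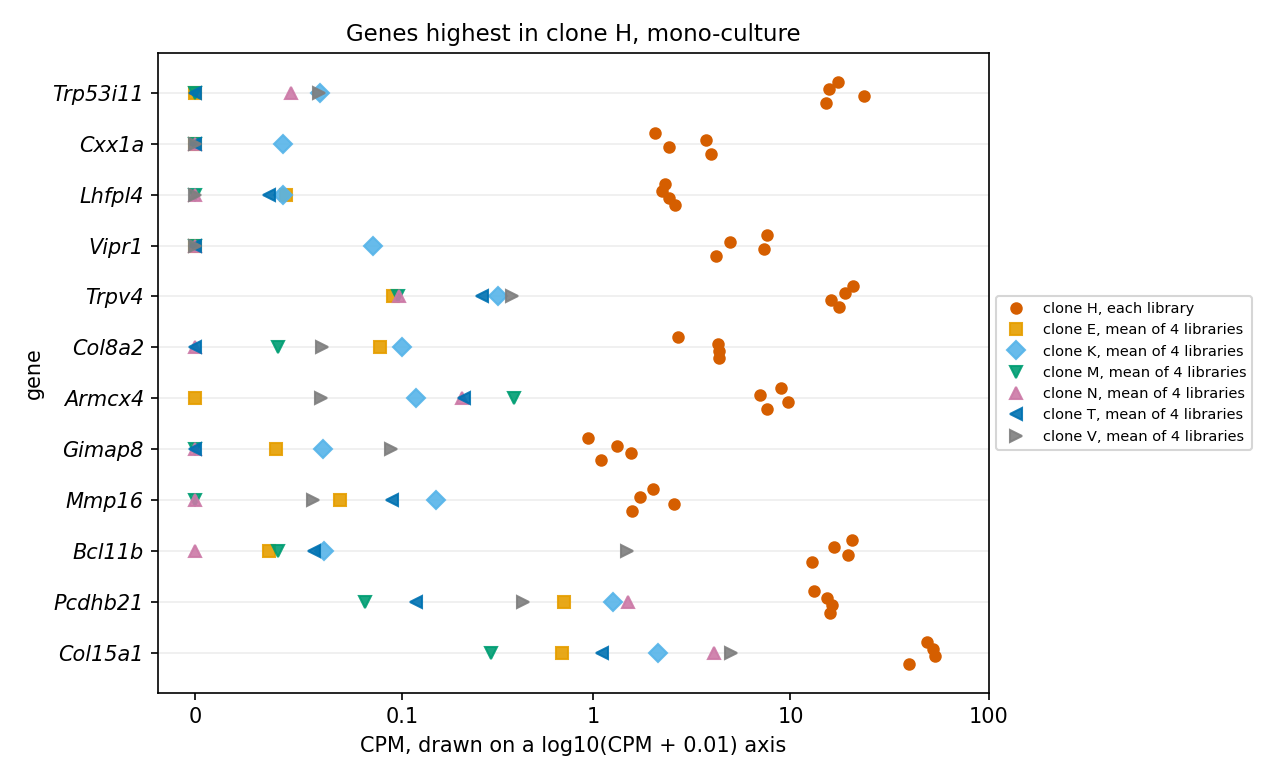
The 12 named genes with the largest margins among those highest in clone H, with CPM on a log10(CPM + 0.01) axis. Orange circles are the 4 clone H libraries and the other symbols are the clone means over 4 libraries. For every gene the 4 circles lie to the right of all 6 clone means.

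Collagens had the largest median log2 fold change of the 25 gene lists. Of 26 collagen genes tested, 17 were higher and 1 lower in clone H than the mean of the other clones, with a median log2 fold change of 1.76 against -0.00 over all genes tested (7.72% higher and 6.93% lower). 5 of them (0.881% of all genes tested passed this rule) were highest in clone H: Col8a2, Col15a1, Col4a5, Col8a1 and Col27a1. Col15a1, a basement membrane collagen, read 49.1, 52.7, 53.3 and 39.8 CPM, with 5.001 CPM in clone V and less elsewhere. Col4a5, a chain of basement membrane collagen IV, read 385, 340, 371 and 304 CPM against 119 CPM in clone V and 11.3 to 38.4 CPM in the other 5. Every clone H library lay above every other library for both genes, which largely follows from the margin rule. Col8a2 read 2.70, 4.31, 4.37 and 4.33 CPM, with at most 0.194 CPM in any other library. Its partner chain gene Col8a1 read 149, 171, 145 and 156 CPM against 72.6 CPM in clone V, a margin that only just passed the threshold (log2 1.10, edgeR adjusted p = 0.0969). Col11a1, a fibril-regulating collagen, was higher than the mean of the others (log2 fold change 5.74 ± 0.15, SE) but at a similar level in clone V (52.7 ± 2.24 against 55.4 CPM). Col14a1, at 0.0152 CPM, was the collagen lower in clone H, against clone means of up to 13.5 CPM. Of the 10 fibroblast markers, 4 were at or over 1 CPM in clone H, among them the collagen genes Col1a1 and Col3a1, and 5 were at or under 0.1 CPM. The part of fibroblast RNA in these values was not tested.

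Of 42 matrix proteases and inhibitors tested, 23 were higher and 2 lower (median log2 fold change 1.06). Over all genes tested, the background for every list, 7.72% were higher, 6.93% lower and 0.881% highest. Mmp16, a membrane-anchored metalloproteinase, and Adam33, a membrane metalloproteinase of the disintegrin family, were highest in clone H. Adam33 read 4.03, 1.58, 5.07 and 3.23 CPM against 0.656 CPM in clone V. Mmp16 read 2.01, 1.74, 2.59 and 1.59 CPM against at most 0.281 CPM in any other library. Mmp2, the gelatinase, read 71.3, 88.8, 72.3 and 71.9 CPM in clone H and 57.9 CPM in clone V, but no more than 0.413 CPM in the other 5 clones, so that it marked clones H and V together and was not highest by the rule (log2 margin 0.39, edgeR adjusted p = 0.515). Mmp17, a membrane-type metalloproteinase, had 0 counts in clone H and clone means of 0.0650 to 1.60 CPM elsewhere. Among integrins and laminins, 10 of 24 were higher and 3 lower, and the integrin subunits Itgb8 (57.97 ± 12.7 CPM against 19.7 CPM in clone V) and Itga10 (4.84 ± 1.04 against 2.40 CPM in clone V) were highest. The laminin chain gene Lamb2 was lower, at 101 ± 13.1 CPM against 81.2 to 472 CPM.

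The mesenchymal list had 13 of 33 genes higher and 2 lower (background 7.72% and 6.93%). The median log2 fold change of the list was 0.69, and 3 genes were highest (background 0.881%). Prrx1, a homeobox factor of mesenchymal cells, read 91.9, 103, 86.3 and 86.4 CPM against 45.1 CPM in clone V and 1.23 CPM in clone E. Snai1, a repressor of the E-cadherin gene, read 17.8, 28.3, 17.8 and 18.9 CPM against 8.55 CPM in clone N and 0.446 CPM in clone V. Spp1, which encodes the secreted matricellular protein osteopontin, read 13929, 13579, 13350 and 11818 CPM against clone means of 497 to 4913 CPM. These 3 members passed the margin rule. Ncam1, a neural cell adhesion molecule, was higher than the mean of the others at 19.5 ± 7.12 CPM but lay under clone V at 29.5 CPM. Twist2, another mesenchymal transcription factor, ran the other way with 9.65 ± 1.00 CPM against a mean of 34.8 CPM over the 6 clones (log2 fold change -1.53 ± 0.13, SE).

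Of the cell adhesion genes, 8 of 20 cadherins and protocadherins tested were higher and 3 lower (background 7.72% and 6.93%, with 0.881% highest). Pcdh19, an X-linked protocadherin, was highest with 235, 295, 222 and 240 CPM against 115 CPM in clone V. The beta protocadherin cluster was looked at after its values were seen. The count table held 22 of its genes, of which 13 were tested, 11 were higher and 6 were highest in clone H (Pcdhb16, Pcdhb17, Pcdhb18, Pcdhb20, Pcdhb21 and Pcdhb22), with a median log2 fold change of 2.68. They lie in 2 runs of neighbors on chromosome 18. Pcdhb22 read 9.31, 10.2, 11.1 and 14.6 CPM against 3.18 CPM in clone K, and Pcdhb17 read 14.1, 19.6, 15.9 and 15.7 CPM against 6.96 CPM in clone V. Genes of this cluster are similar in sequence, so reads shared between them could be counted to the wrong member. Pcdh17, a protocadherin outside the cluster, was lower in clone H at 0.187 ± 0.108 CPM, against 0.733 to 66.7 CPM.

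Epithelial genes showed the opposite lean. 9 of 26 ductal and epithelial genes tested were lower and 3 higher in clone H (background 6.93% and 7.72%). The median log2 fold change of the list was -0.74. Ocln, which encodes the tight junction protein occludin (chr13:100496507-100552718), read 0.629, 0.415, 0.270 and 0.122 CPM against clone means of 5.92 to 42.7 CPM, 16.5-fold under the nearest clone. Spint2, a membrane inhibitor of serine proteases such as matriptase, read 1.13, 0.8294, 1.57 and 1.10 CPM against 14.3 to 74.97 CPM (log2 margin -3.59, edgeR adjusted p = 2.10e-15). No library of any other clone fell to the clone H level for either gene, which largely follows from the margin rule. Cldn3, a claudin, was lower than the mean of the clones but also low in clone V (0.0792 against 0.0703 CPM). Pkp1, a desmosomal plaque protein, went the other way and was highest in clone H, with 72.2, 59.97, 71.9 and 59.8 CPM against 27.4 CPM in clone N and 27.3 CPM in clone V. Cdh1, which encodes E-cadherin, read 46.6, 49.2, 54.8 and 42.9 CPM, inside the range of 1.00 to 305 CPM over the other clones. Against the mean of the others Cdh1 leaned upward (log2 fold change 0.61, edgeR adjusted p = 6.49e-07) but missed the minimum fold change. This lean depended on the clones compared, with 1.05 without clone E, 1.28 without clone V and -0.38 without clone M. Krt19 at 320 ± 16.5 CPM lay inside 171 to 920 CPM. Outside the list, the polarity and epithelial transport genes Llgl2, Magi3 and Scnn1a were also lowest in clone H, at 4.70, 83.2 and 0.660 CPM against nearest clone means of 11.8, 173 and 2.01 CPM. They were picked out after their values were seen and do not count toward the lean of the list.

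The gene with the largest margin among those lowest in clone H was Mkrn3, a paternally expressed imprinted gene for a ubiquitin ligase (ENSMUSG00000070527, chr7:62417593-62420139, minus strand). It had 0 counts in all 4 clone H libraries and 0.567 to 3.63 CPM in the other 24, so the nearest clone, N, was at least 16.02-fold higher against a floor of 3 counts over the clone H sum. Lphn2 (Adgrl2 in the current annotation), an adhesion G protein-coupled receptor gene, also had 0 counts in clone H, and clone means elsewhere ran from 0.252 CPM in clone K to 46.3 CPM in clone V. Slitrk5, a neuronal transmembrane protein gene, read 0.189, 0, 0.108 and 0.061 CPM against 2.61 to 69.6 CPM. Clone H was thus at or near 0 for 3 genes that were detected in every other clone.

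Kank1, an adaptor between adhesions and the cell cortex, read 0.126, 0.415, 0.270 and 0.305 CPM against 5.76 to 15.4 CPM. Arhgap29, a GTPase-activating protein gene, read 1.76, 1.66, 0.756 and 1.22 CPM against 21.99 to 111 CPM, and Pdlim4, an actin-associated protein gene, read 0.440, 0.332, 0.378 and 0.244 CPM against 4.03 to 42.9 CPM. These 3 cytoskeletal genes were 11.6-fold to 20.6-fold under the nearest clone. Enpp4 was at 0.295 ± 0.0805 CPM against 4.79 to 18.9 CPM. Slc30a1, a zinc exporter, was at 0.214 ± 0.0868 CPM against 2.60 to 7.96 CPM, although 1 library of another clone read only 0.343 CPM. Ntn3, a netrin, had 1 count in clone H and was under 1 CPM in every clone mean; the annotation used here gives it no position.

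**Figure D2:**
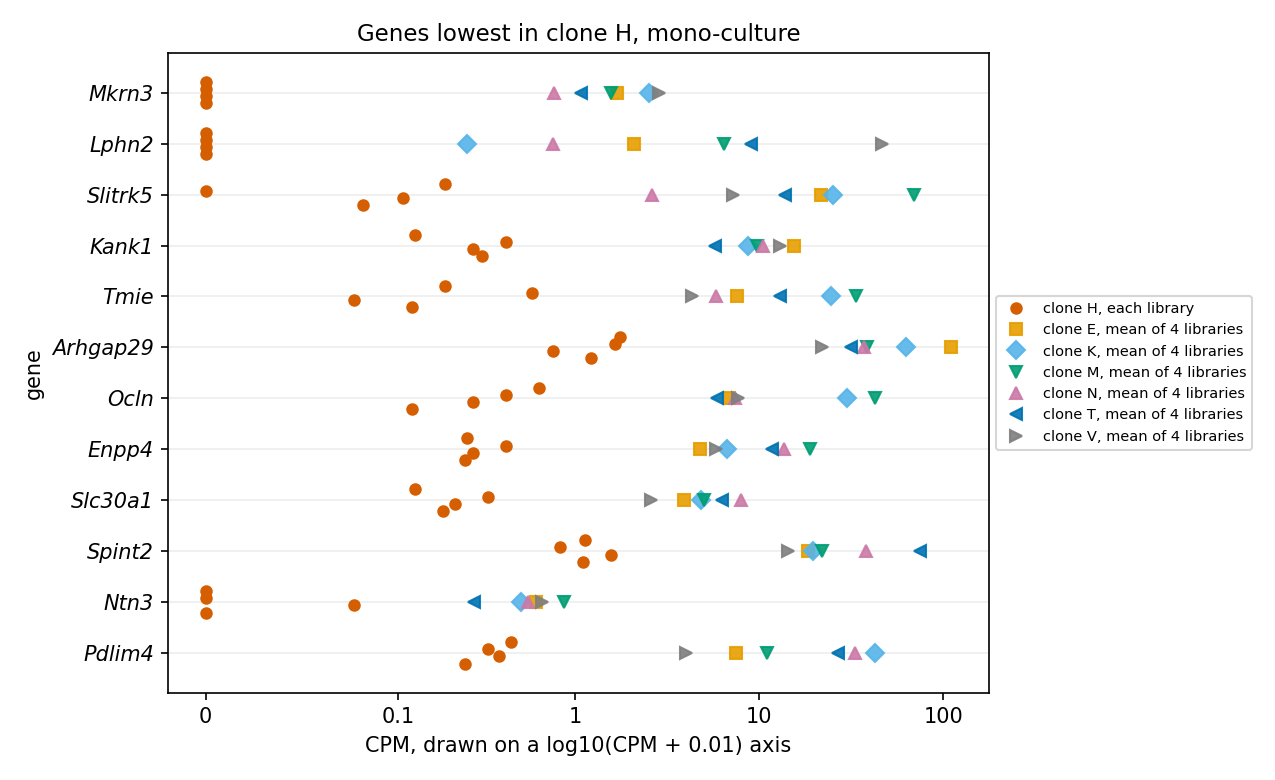
The 12 named genes with the largest margins among those lowest in clone H, with CPM on a log10(CPM + 0.01) axis. Orange circles are the 4 clone H libraries and the other symbols are the clone means over 4 libraries. All 4 circles of Mkrn3 and Lphn2 are at 0, and for every gene the circles lie to the left of all 6 clone means.

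Several genes lowest in clone H were neighbors on a chromosome. 8 of the 88 lay in 4 pairs with no tested gene between them: Ly6a with Ly6c1 on chromosome 15, Enpp5 with Enpp4 on chromosome 17, Tcp11l1 with Depdc7 on chromosome 2, and Tmie with Als2cl on chromosome 9. Among the 119 highest genes, 16 lay in 7 such runs. The share expected among equally many tested genes is not given here, so these counts do not show clustering. Ly6a, the surface antigen Sca-1, read 7.42, 12.5, 7.02 and 4.03 CPM against 66.2 to 304 CPM, and Ly6c1 read 15.03, 31.02, 24.7 and 17.8 CPM against 57.1 to 196 CPM. Members of the Ly6 family are similar in sequence and their counts carry that uncertainty. Depdc7 and Tcp11l1 were at 0.326 and 0.963 CPM against nearest clone means of 2.77 and 5.39 CPM.

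Tmie, a membrane protein gene needed for hair cell mechanotransduction, read 0.189, 0.581, 0.054 and 0.122 CPM against 4.34 to 33.5 CPM, and Als2cl read 13.4, 8.21, 9.83 and 15.9 CPM against 42.96 to 234 CPM. Both were lowest in clone H and nearest to it in clone V. Their RefSeq starts face away from each other, Tmie on the minus strand at position 110880073 and the first of the Als2cl starts on the plus strand at 110880174, whereas the GENCODE models of the 2 genes overlap. The 100 bases between these starts (chr9:110880074-110880173, GRCm38.p6, plus strand, from RefSeq) are shown because the 2 genes that share them were low together. Capitals mark the 12 CpG dinucleotides, and 71.0% of the bases are G or C.
Tmie-Als2cl: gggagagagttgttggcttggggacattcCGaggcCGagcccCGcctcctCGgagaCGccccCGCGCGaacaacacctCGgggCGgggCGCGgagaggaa
It is shown as a description of the locus. Reads from the part where the 2 gene models overlap cannot be told apart unless counting used strand, which the sources used here do not state.

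Growth factor genes leaned upward. 16 of 28 genes of the PDGF, FGF, HGF, VEGF and IGF axis tested were higher and 1 lower (background 7.72% and 6.93%). The median log2 fold change of the list was 1.16, and 1 of the 28 was highest in clone H (background 0.881%). How clone V stood on the list as a whole is not given here, so the lean is not shown to be particular to clone H. Pgf, a VEGF family ligand, was highest in clone H with 27.2, 25.96, 30.7 and 25.3 CPM against 8.19 CPM in clone V. Among 12 genes of the EGF family and its receptors, 4 were higher and 1 lower. The neuregulin Nrg4 was highest at a low level (1.01 ± 0.179 against 0.391 CPM in clone N), and the receptor gene Erbb3 was lower (2.57 ± 0.48 against 3.72 to 15.1 CPM). Igfbp6, which binds IGF2, was the axis gene lower in clone H, at 0.834 ± 0.458 against 1.53 to 34.02 CPM.

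Wnt genes moved in both directions, with 13 of 34 higher and 6 lower (background 7.72% and 6.93%). Wnt10b and Dkk2 were high in both clone H (26.3 ± 7.87 and 15.2 ± 6.69 CPM) and clone V (24.6 and 14.2 CPM), while Wnt4 at 4.30 ± 1.16 CPM was low in both, against 4.87 CPM in clone V and 109 to 202 CPM in the other 5. The BMP antagonist genes Chrd and Grem1 were among the 9 of 40 TGF-beta and BMP genes that were lower (5 were higher). Grem1 read 6.71 ± 1.82 CPM in clone H and 3.76 CPM in clone V, against 48.3 to 448 CPM elsewhere. In these Wnt and BMP genes clones H and V stood together, and none was highest or lowest in clone H alone.

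Pancreatic lineage factors were few. Of 14 tested, 3 were lower (Onecut2, Hnf4a and Pdx1) and 2 higher (Gata6 and Foxa1), against a background of 6.93% and 7.72%. Pdx1, the factor whose promoter drives the Cre in this model, read 51.3 ± 1.92 CPM against 57.9 to 200 CPM. Of 41 xenobiotic and glutathione enzymes tested, 13 were lower and 2 higher, against 6.93% lower and 7.72% higher over all genes tested. The aldo-keto reductase gene Akr1c12, which has close paralogs, was lowest in clone H (0.629, 1.49, 1.62 and 0.976 CPM against 2.63 to 9.05 CPM).

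Of 41 genes of the integrated stress response tested, 1 was higher and 4 were lower (background 7.72% and 6.93%), with a median log2 fold change of 0.06. Atf4, its central transcription factor, read 384, 424, 468 and 415 CPM against clone means of 219 to 907 CPM (log2 fold change -0.04 ± 0.16, edgeR adjusted p = 0.848). Asns and Psph, enzymes of asparagine and serine synthesis, were at 156 ± 28.6 and 37.9 ± 6.34 CPM, inside the clone ranges of 32.3 to 333 and 15.6 to 90.6 CPM. Shmt2 was at 238 ± 34.9 CPM, also inside its range of 87.6 to 458 CPM. Asns (log2 fold change 0.53, edgeR adjusted p = 0.0631) and Shmt2 (0.43, edgeR adjusted p = 0.0434) leaned upward against the mean of the others. Both passed the p threshold but not the minimum fold change, and Psph was at -0.004. Ddit4, an inhibitor of mTORC1, was the higher member at 269 ± 6.23 CPM against 58.3 to 151 CPM. The 4 lower members were Cebpb, Gdf15 (0.146 ± 0.163 CPM against 0.0918 to 2.81 CPM), Stc2 (8.90 ± 3.08 against 5.99 to 59.3 CPM) and Vldlr (46.8 ± 7.58 against 35.3 to 170 CPM), each within the range of the other clones where values are given. Of 28 glycolysis genes, 4 were higher and 2 lower, the higher ones including Ldhb (3.04 ± 0.635 CPM) and Pfkfb3 (29.99 ± 6.20 CPM against at most 20.5 CPM). Of 30 MAPK feedback and early genes 3 were higher and 1 lower, and of 30 Myc network genes 2 were higher.

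Of the driver genes, Trp53 and Smad4 had their highest mean in clone H without passing the rule. Trp53 read 360, 377, 366 and 359 CPM against 260 to 363 CPM. Cdkn2a (233 ± 26.1 CPM) and Myc (287 ± 13.9 CPM) lay within the clones' ranges, and Smad4 was at 167 ± 10.7 CPM against 97.7 to 152 CPM. Cd34, a surface sialomucin, was at 0.308 ± 0.145 CPM in clone H and near 0 in clones E and V, against 19.2 to 61.3 CPM in the other 4. Vim, the intermediate filament of mesenchymal cells, read 7737, 7859, 6019 and 7209 CPM, with clone means of 3503 to 5626 CPM elsewhere (log2 margin 0.36).

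The remaining lists are given by their counts, to be read against 7.72% higher and 6.93% lower over all genes tested. Ifi27, an interferon-induced gene, was highest and Ifih1, the RNA sensor MDA5, was lowest in clone H, among 8 higher and 2 lower of 37 interferon and MHC class I genes tested. Ifih1 read 0.503, 0, 0.216 and 0.549 CPM against 1.71 to 14.8 CPM. Of 22 imprinted genes tested 5 were higher and 1, Mkrn3, lower, and Asb4 was highest at 2.40 ± 0.674 CPM against 0.695 CPM in clone V. 8 of 34 chemokine and cytokine genes were higher and 6 lower, of which Il1rn, the interleukin-1 receptor antagonist, was at 8.79 ± 1.44 CPM in clone H, 5.30 CPM in clone V and as high as 960 CPM in clone T. Axon guidance genes had 3 of 50 higher and 7 lower, Notch and Hedgehog genes 3 of 19 higher and 2 lower, Hox genes 1 of 6 in each direction, KPC drivers and tumor suppressors 3 of 24 higher, and sex-linked dosage markers 1 of 8 higher (Ddx3y, at 150 ± 11.7 against 43.7 to 102 CPM). None of 3 germline genes tested was called.

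**Figure D3:**
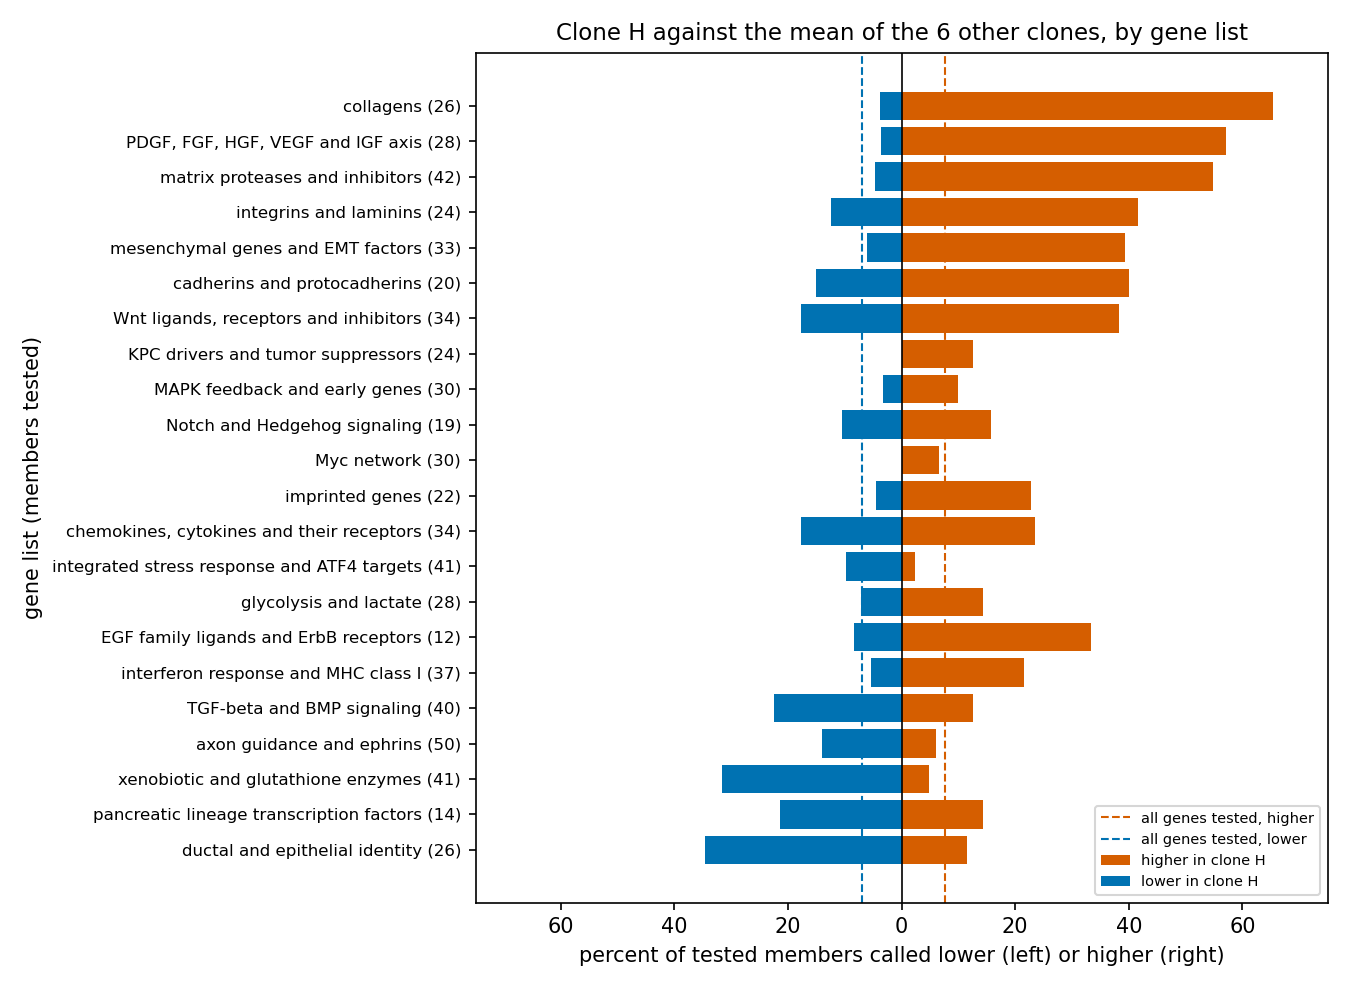
Percent of the tested members of each gene list (number tested in parentheses, lists with at least 10) called higher (orange, right) or lower (blue, left) in clone H, with dashed lines at 7.72% and 6.93% for all genes tested. Lists are ordered by median log2 fold change, with collagens at the top and ductal and epithelial genes at the bottom. The lists were chosen with results of these data known.

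Expression also differed by chromosome. Each gene's log2 fold change was taken from the fit and the median was formed over the genes of a chromosome, as a description with no test. In clone H the median was 0.33 over 451 genes of chromosome 12 and 0.38 over 352 genes of chromosome 18, with 77.8% and 78.1% of their genes above 0. It was -0.30 over 460 genes of chromosome 19, of which 20.7% were above 0, and -0.23 over 647 genes of chromosome 6. Chromosome X stood at 0.17 and the other chromosomes between -0.17 and 0.10. The 4 libraries gave 0.303 to 0.319 for chromosome 12, 0.342 to 0.369 for chromosome 18, -0.293 to -0.267 for chromosome 19 and -0.230 to -0.193 for chromosome 6, on a log2(CPM + 0.5) scale, so the libraries differed by far less than the chromosomes. Genes with a mean over 10 CPM gave 0.35, 0.40, -0.30 and -0.23 for chromosomes 12, 18, 19 and 6. In coculture the same chromosomes stood at 0.32, 0.32, -0.27 and -0.24. Clone V had medians of 0.30, 0.34 and -0.31 on chromosomes 12, 18 and 19 in the same kind of comparison, and 0.20 on chromosome 6, where clone K stood at -0.29.

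**Figure D4:**
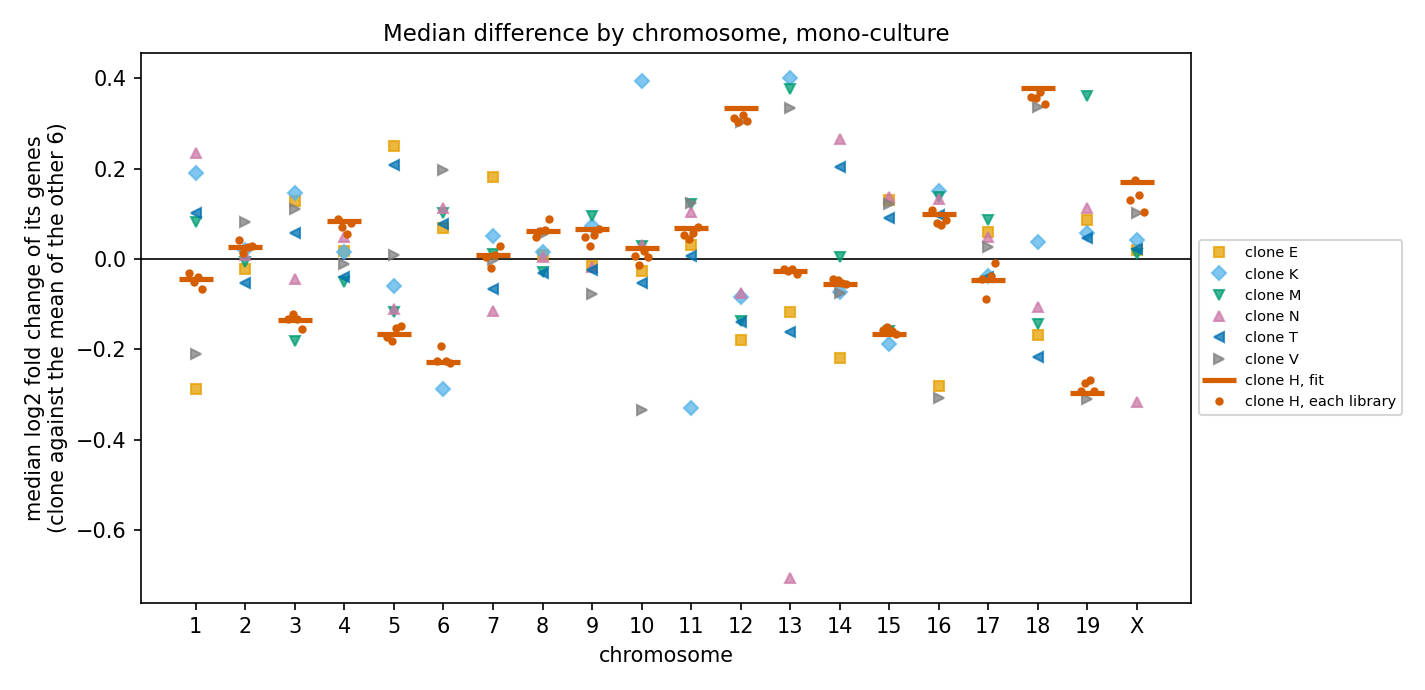
Median log2 fold change of the genes on each chromosome, for each clone against the mean of the other 6. Orange bars are clone H from the fit, small orange points its 4 libraries on a log2(CPM + 0.5) scale, and other symbols the other clones. Clones H and V lie together and above the other 5 on chromosomes 12 and 18, and together and below them on chromosome 19.

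The coculture libraries were not used for the calls above and allowed the same rules to be applied to other libraries of the same clones, 4 for each clone. In coculture 52 of 13399 genes tested (0.388%) were highest and 32 (0.239%) lowest in clone H. Of the 119 genes highest in mono-culture 111 were tested there, 33 of these (29.7%) were called highest again, and all 111 kept a positive log2 fold change. Of the 88 lowest genes 87 were tested, 23 (26.4%) were called lowest again and 84 kept a negative log2 fold change. No gene was called in the opposite direction. Clone H had the highest mean of all 7 clones for 105 of the 119 genes and the lowest for 67 of the 88. By the fit, 13 of the 111 and 20 of the 87 did not lie beyond every other clone. The share over all genes is not given here for direction or for the extreme mean. Median log2 fold changes in coculture were 0.67 for collagens, 0.31 for the growth factor axis, 0.39 for matrix proteases and 0.01 for Wnt genes. In mono-culture they were 1.76, 1.16, 1.06 and 0.49. Mesenchymal genes stood at 0.58 (0.69 in mono-culture), epithelial genes at -0.54 (-0.74) and interferon genes at 1.30 (-0.05).

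Trp53i11 read 21.6, 10.8, 7.56 and 6.14 CPM in the clone H cocultures against at most 0.0356 CPM in the other clones' means, and Bcl11b, Trpv4, Vipr1, Cxx1a, Lhfpl4, Col8a2, Pcdhb21, Col4a5 and Pgf were also called highest again. Ocln, Spint2, Mkrn3, Slitrk5, Kank1 and Pdlim4 were called lowest again. Spint2, for example, read 1.64, 1.14, 0.796 and 0.826 CPM against clone means of 13.7 to 61.9 CPM. Some genes were not called again. Lphn2, at 0 in mono-culture, read 2.86, 5.66, 3.81 and 4.70 CPM in the clone H cocultures, where the lowest mean of another clone was 4.41 CPM. Ifih1 read 2.86, 7.11, 10.1 and 9.91 CPM, and neither gene was called there. Gimap8, on the other side, was at 0.0516 to 0.243 CPM in the clone H cocultures and was not called. Arhgap29 read 6.57, 11.7, 10.4 and 7.95 CPM and was still lower than the mean of the others but no longer lowest. Fibroblast markers summed to 508 to 1271 CPM in the clone H cocultures, against 99.4 to 119 CPM in its mono-cultures, and to 220 to 1865 CPM in the cocultures of the other clones. Their part in these shifts was not tested.

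**Figure D5:**
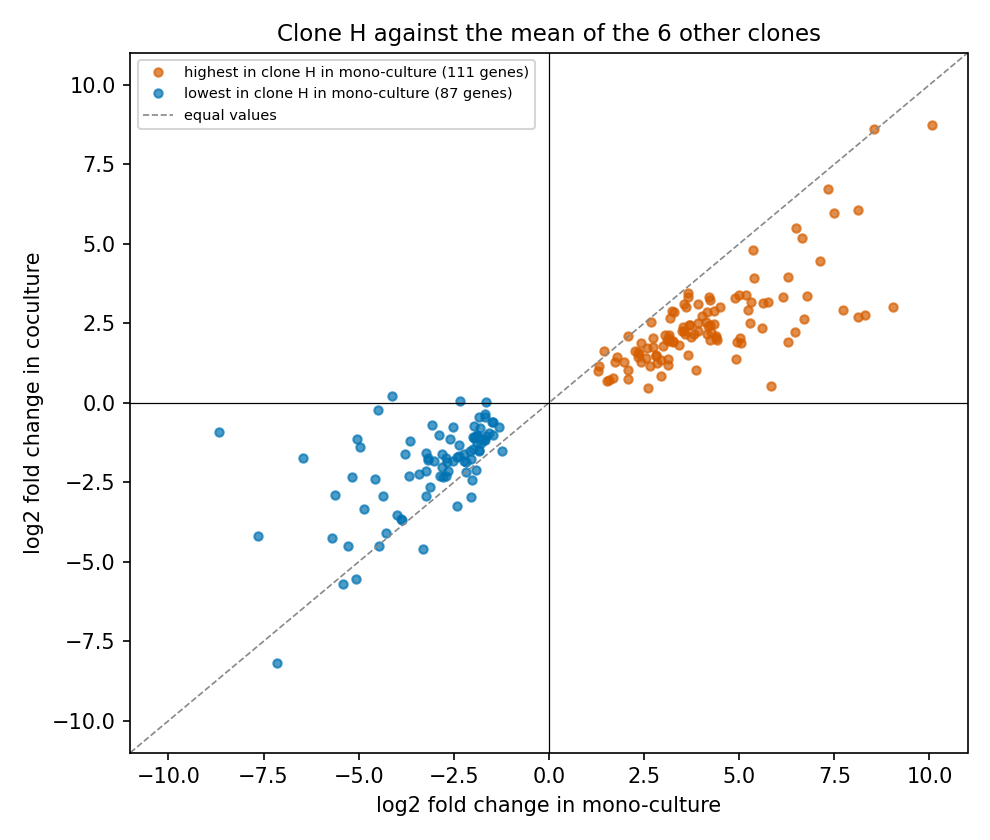
Log2 fold change of clone H against the mean of the 6 other clones in mono-culture (horizontal axis) and in coculture (vertical axis), for the 111 genes highest (orange) and 87 genes lowest (blue) in mono-culture that were tested in both. The dashed line marks equal values. All orange points lie above 0 on the vertical axis and 84 blue points below it.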

How the data were processed

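RNA was sequenced from mono-cultured and cocultured clones as poly(A), strand-specific, paired-end libraries. The authors deposited whole-number counts per gene and an RPKM table, and their processing notes name featureCounts, edgeR and the mm10 build, with versions and strand setting not given in the sources used here. The counts were the basis of all calls, and the deposited RPKM values (reads scaled to gene length and library size by the authors) were used for alternatives. Genes were filtered with filterByExpr by clone, scaled by TMM and fitted with the quasi-likelihood test of edgeR 4.0.16 (limma 3.58.1, DESeq2 1.42.0, R 4.3.3), with clone as the only term. Clone H was contrasted with the mean of 6 clones and with each one; a gene was highest or lowest where all 6 differences had 1 direction, the largest of the 6 p-values passed after Benjamini-Hochberg adjustment (0.1), and the smallest margin reached 1 (log2). The standard error was taken from the fold change and its F statistic. The fit was tested on simulated counts with known changes. CPM values used TMM-scaled library sizes, and a fold against 0 counts used a floor of 3 counts over a clone's summed libraries. Intervals and floors cover counting error only. Pairs of clone H libraries differed by more than sampling noise (chi-square per degree of freedom 7.32 to 21.3), so none was a copy of another. All 4 were used as libraries of the line, and the check cannot tell whether they came from separate cultures.

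Genes were named from the 12 highest and 12 lowest by margin, up to 10 on and 10 off, up to 3 called members in each direction and every highest or lowest member of 25 lists, and fixed driver, stress, adhesion and cell type markers; symbols of predicted genes were counted but not named among the first 2 kinds, and others are said to have been picked after their values were seen. 1 of the fixed driver genes and 1 of the highest genes are not reported here. The members and lists were chosen with earlier results of these data known. 6 list symbols were matched through RefSeq synonyms. Positions are from GENCODE M21 (GRCm38), which held 37693 of the 39017 genes. Promoter composition was worked out but is not reported here, because only 73.2% of tested genes had a promoter entry, under the 80% the check requires.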

Additional observations from a re-analysis of the deposited data

Results flagged for a closer look

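Among 41 sets of 4 libraries examined (the leading and fixed genes in clone H, and the library totals of the 7 clones), 4 had 1 library far from the others by Dixon's criterion at the 95% level, which flags about 1 set in 20 by chance (2.05 of 41). In clone H, Col8a2 was at 2.70 CPM in replicate 1 against 4.31 to 4.37 CPM in the others, and Enpp4 at 0.415 CPM in replicate 2 against 0.244 to 0.270 CPM. Ntn3 was at 0.0540 CPM, a single count, in replicate 3 and at 0 in the others. Mmp2 was at 88.8 CPM in replicate 2 against 71.3 to 72.3 CPM.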

How the results depend on the processing

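Against the 1043 higher, 936 lower, 119 highest and 88 lowest genes, no filter on low counts gave 1724 higher genes, limma on log2(RPKM + 1) gave 424, 338, 45 and 19, no minimum fold change gave 4238, 3970, 272 and 217, and a minimum of 2 gave 457, 364, 35 and 27. DESeq2, RLE scaling, a mean CPM of at least 1, limma on log2(RPKM + 0.1) and a threshold of 0.05 kept the counts within 1.5 times. Library numbers up to 43 and above were treated as 2 sheets of samples, a split that the sample titles do not name. Clones E, N and V lay wholly on the first sheet and clone K wholly on the second. The sheet term therefore rested on clones H, M and T. With the sheet as a covariate 118 genes were highest and 87 lowest, and on the first sheet alone, which leaves out clone K, 150 and 101. On the clone sums, also with a filter on the sums chosen after seeing the data, 0 higher and 0 lower genes were called by edgeR and 173 in all by DESeq2, and edgeR called 34 without clone V. Leaving out 1 library number or 1 clone at a time gave 954 to 1118 higher, 857 to 1143 lower, 101 to 343 highest and 58 to 307 lowest genes, and 0 to 34 on the sums. The highest values of the last 3 ranges, 343, 307 and 34, came without clone V, and 58 lowest genes were called without replicate 1 and also without replicate 2 of every clone. Genes on in clone H numbered 5 at 2 and 0.2 CPM, 0 at 0.5 and 0.05 CPM, 6 by clone means and 2 to 5 with a library or clone left out. Genes off numbered 1 at 0.5 and 0.05 CPM, 1 by clone means (Slitrk5) and 0 to 2. Replicate numbers were not taken to pair the samples, since the r of deviations ran from -0.135 to 0.305 over 84 same-number pairs. Its median was 0.0549, against -0.0205 for pairs with other numbers, and 15 of 28 libraries correlated best with their own number, which is a hint from the data and not the design. The fit with the replicate block gave 1047, 937, 123 and 91 genes. The chromosome medians, followed through 23 alternatives added after their values were seen, ranged from 0.17 to 0.41 for chromosome 12, 0.17 to 0.45 for 18, -0.35 to -0.21 for 19 and -0.28 to -0.14 for 6. For the leading and fixed genes, 788 log2 fold changes under the alternatives kept their direction and side of the threshold, 8 fell below the minimum fold with limma on log2(RPKM + 1), 2 rose past it (Cdh1 without clone E and without clone V), and 19 changed sign, none of them called. In the fits without a library number or clone, Cdh1 ranged from -0.38 (without clone M) to 1.28, Atf4 from -0.24 to 0.18 and Psph from -0.26 to 0.26. Psph was at 0.00478 with RLE, 0.00666 with DESeq2, 0.00706 with the sheet covariate and 0.0227 with the replicate block. The cause of these shifts was not tested. A clone is 1 line, so no comparison here extends to other tumors.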

Other observations

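Some genes outside the lists were highest in clone H at high levels in all 4 libraries. Nptx1, a secreted neuronal pentraxin, read 2106, 1561, 2000 and 2224 CPM against clone means of 24.7 to 334 CPM, and 1344 to 2756 CPM in the clone H cocultures. Loxl3, a lysyl oxidase that crosslinks collagen, read 86.7, 85.0, 71.6 and 96.3 CPM against 24.4 CPM in clone V, and Creb3l1, a membrane-bound transcription factor of secretory cells, 27.99, 23.5, 24.3 and 16.8 CPM against 5.16 CPM in clone V. Tnfrsf11b, the decoy receptor osteoprotegerin, was at 12.5 CPM against at most 1.47 CPM in any other clone.

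Among the genes lowest in clone H, the metal-binding gene Mt1 read 11.3, 10.8, 13.7 and 10.4 CPM against clone means of 28.3 to 96.7 CPM, although 1 library of another clone read 9.81 CPM, while the zinc exporter Slc30a1 was lowest too. Cyba, a subunit of NADPH oxidase, read 0.126, 0, 0 and 0.061 CPM against 0.569 to 21.1 CPM. Gata3, a lineage transcription factor, read 1.95, 1.58, 0.486 and 1.34 CPM against 3.06 to 12.3 CPM. These genes were picked out after their values were seen.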
